A study of Mus musculus with 5 samples.

Results

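The 10 imprinted genes Peg3, Peg10, Mest, Snrpn, H19, Igf2, Igf2r, Kcnq1ot1, Zrsr1 and Impact were followed by gene symbol in RNA-seq of mouse 2-cell embryos. All 10 had a row among the 32285 symbols of the expression table. Embryos were fertilised in vitro for about 6 h and cultured for 24 h in KSOM, an embryo culture medium. The 3 PNMC libraries came from cultures with 25 nM PNMC, a compound whose abbreviation the labels do not spell out, and the 2 control libraries from cultures with the same volume of DMSO, the solvent. All groups shared hormone-stimulated mothers of 6 to 9 weeks and fathers of 12 to 16 weeks, and no strain is named in the labels. The labels tie no library to a culture of its own and give no number of embryos, so the spread between libraries of a group, and every p-value, may reflect technical variation only.

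Imprinted genes are expressed mainly from the copy inherited from 1 parent, mostly because DNA methylation laid down in the egg or the sperm marks the 2 copies differently. In the early embryo these marks are held through the genome-wide loss of methylation by maintenance factors such as the zinc finger protein ZFP57, which binds the methylated hexamer TGCCGC. Among the 10 genes, Mest, Snrpn, Peg3, Peg10, Igf2, Impact, Zrsr1 and Kcnq1ot1 are known as paternally expressed, and H19 and Igf2r as maternally expressed. The table does not separate the 2 parental copies, nor RNA carried over from the egg from RNA made by the embryo. It therefore holds no measure of imprinting itself, and fewer cells and less RNA per cell cannot be told apart in it.

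RefSeq promoter windows of build GRCm38.p6, from 250 bases before a start site to 50 bases from it onwards, were at hand for 7 of the 10 genes, with none for Peg10, H19 or Impact. These windows come from another build than the GRCm39 named for the libraries and were used for sequence only. The promoters below belong to Mest and Snrpn, the most abundant members, to Zrsr1, whose groups differed most among the members tested, and to Peg3, a member near the detection floor. They are written 5′ to 3′ on the strand of the gene, and capitals mark TGCCGC or its reverse complement GCGGCA. For Mest, at chr6:30737800-30738049 on the plus strand, and Zrsr1, at chr11:22971755-22972004 on the plus strand, the 250 bases before the start are shown. For Peg3, at chr7:6730463-6730669 on the minus strand, 207 of these are shown, and the 43 next to the start are left out because the RefSeq gene extends over them. For Snrpn only the 30 bases around its match are shown, at chr7:60005184-60005213 on the minus strand, and these run across the start.
Mest: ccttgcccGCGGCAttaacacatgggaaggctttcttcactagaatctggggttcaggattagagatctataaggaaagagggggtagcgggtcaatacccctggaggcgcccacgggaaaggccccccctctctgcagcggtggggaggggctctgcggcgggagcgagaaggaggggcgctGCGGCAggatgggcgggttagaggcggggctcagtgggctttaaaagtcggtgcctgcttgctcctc
Snrpn: gacccctgcattGCGGCAaaaatgtgcgca
Zrsr1: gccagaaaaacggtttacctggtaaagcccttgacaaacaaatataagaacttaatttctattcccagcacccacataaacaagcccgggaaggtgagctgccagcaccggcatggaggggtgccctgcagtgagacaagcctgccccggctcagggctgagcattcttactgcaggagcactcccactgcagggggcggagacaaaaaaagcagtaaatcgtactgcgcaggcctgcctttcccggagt
Peg3: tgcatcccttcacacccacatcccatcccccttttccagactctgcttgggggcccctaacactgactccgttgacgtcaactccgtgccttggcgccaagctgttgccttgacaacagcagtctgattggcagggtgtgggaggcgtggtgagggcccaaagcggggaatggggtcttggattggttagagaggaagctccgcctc

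The hexamer occurred in 4 of the 15 windows of the 7 genes, namely 2 overlapping Mest windows, 1 of 4 Snrpn windows and 1 of 4 Igf2 windows. Over all 32851 windows of this length, 11.6% held it on either strand. The Mest window carried 2 matches and 17 CpG dinucleotides over its 300 bases, against a median of 7 over all windows. The Snrpn match spanned the start site of the promoter nearest the gene body's downstream end, in a window with 7 CpGs. The windows of Peg3, Zrsr1 and Kcnq1ot1 held 13, 10 and 9 CpGs and no match, which says only that these letters are not in those windows. Igf2r had the window richest in CpG, with 34, and no match either. These are descriptions of sequence, and no methylation was measured.

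Mest and Snrpn were the only 2 of the 10 genes at a high level, and they made up between 93.8% and 95.4% of the summed signal of the 10 in every library. Values are given in the deposited normalised signal, whose unit is not stated, so the order of genes is an order of table values that may or may not be scaled by gene length. Mest, which encodes a protein of the alpha/beta hydrolase family, stood at 75.6 and 96.0 in control libraries 1 and 2 and at 91.6, 70.0 and 83.5 in PNMC libraries 1, 2 and 3. It lay between the 96.5th and the 97.6th percentile of all symbols in each library. Snrpn, the gene of the splicing protein SmN, stood at 52.4 and 60.0 in the controls and at 60.1, 47.6 and 50.4 after PNMC, between the 94.7th and the 95.8th percentile. The lowest Mest value lay above the highest Snrpn value. In both genes the values of the 2 groups overlapped.

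**Figure D1:**
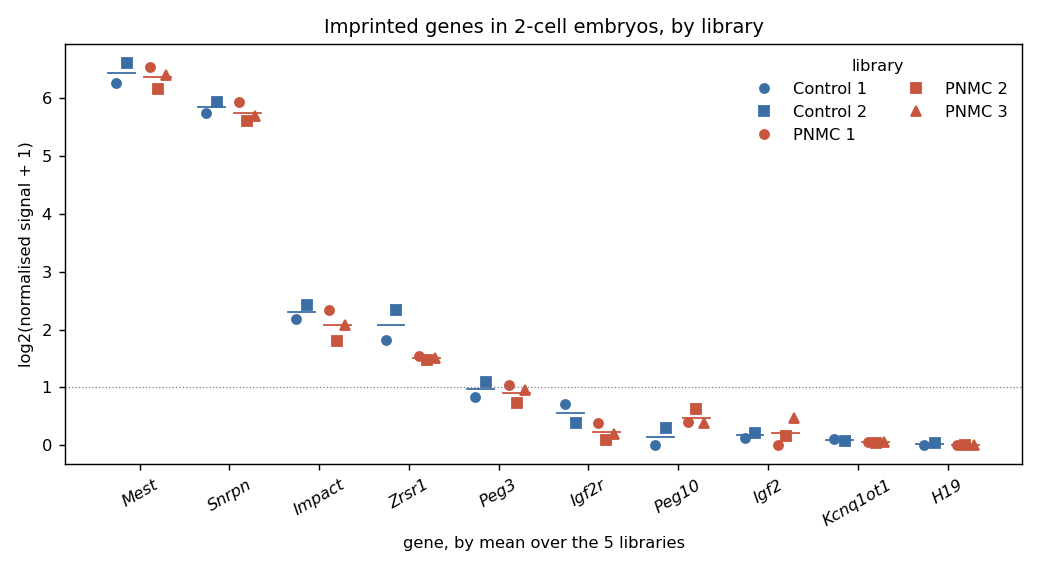
Normalised signal of the 10 imprinted genes in each library on a log2(signal + 1) scale, with genes ordered by their mean; short lines are group means of the log2 values, blue for the 2 controls and red for the 3 PNMC libraries, and the dotted line is a signal of 1. Mest and Snrpn stand far above the other 8 genes, and the PNMC points of Zrsr1 lie below both controls.

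Impact, Zrsr1 and Peg3 were detected at low levels in every library. Impact, an inhibitor of the amino acid sensor kinase GCN2, stood at 3.55 and 4.34 in the controls and at 4.03, 2.50 and 3.23 after PNMC. Zrsr1, a retrogene for a splicing factor that lies inside the Commd1 gene, stood at 2.53 and 4.06 in the controls and at 1.91, 1.78 and 1.83 after PNMC. All 3 PNMC values of Zrsr1 lay below both controls, while those of Impact spanned the lower control. The levels of Impact and Zrsr1 overlapped each other. Peg3, a zinc finger protein gene that controls growth and maternal behaviour, stood at 0.793 and 1.13 in the controls and at 1.07, 0.654 and 0.947 after PNMC, with overlapping groups. Every Peg3 value lay below every Zrsr1 value.

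The other 5 genes were lower still than Peg3, and none of them reached a signal of 1 in any library. The growth factor gene Igf2 stood at 0.0933 and 0.159 in the controls and at 0, 0.120 and 0.394 after PNMC, so that PNMC library 3 was highest and PNMC library 1 was listed at 0. Igf2r, which encodes the receptor that clears IGF2, stood at 0.648 and 0.312 in the controls and at 0.311, 0.0627 and 0.147 after PNMC. The PNMC values of Igf2r lay below the controls, but PNMC library 1 and control library 2 were almost equal. Peg10, a gene derived from a retrotransposon and needed for the placenta, was listed at 0 and 0.235 in the controls and at 0.319, 0.551 and 0.308 after PNMC, higher in each PNMC library than in either control. Kcnq1ot1, a long noncoding RNA that silences its neighbours on the paternal copy, stood at 0.0780 and 0.05004 in the controls and at 0.0448, 0.0312 and 0.0351 after PNMC. These values were among the lowest 5.31% of the values above 0 in every library. H19, a noncoding RNA abundant in later placenta and embryo, was listed at 0 in 4 libraries and at 0.0281 in control library 2. The ranges of Igf2r, Peg10 and Igf2 overlapped one another, so no order among them was resolved. A value of 0 may be an undetected gene or a failed estimate, since the depth behind the values is unknown.

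PNMC was compared with control by limma's moderated test on log2(value + 1), fitted over the 12734 genes whose signal reached 1 in 2 or more libraries. Of the 10 members, 5 passed this filter and 5 did not. None of the 5 tested members passed an adjusted p of 0.05, and none had an unadjusted limma p under 0.05, where 0% of all genes tested passed the adjusted threshold. The unadjusted threshold was passed by 3.27% of genes with lower and 1.73% with higher values after PNMC. All 5 tested members had lower mean log2 values with PNMC. Their median change was -0.10 on the log2 scale, beside -0.05 for all genes tested, of which 7247 were lower and 5487 higher. This balance depended on the scaling: after median scaling 4 of the 5 members were lower with a median of -0.012, and the median of all genes was 0.03, with 5869 lower and 6865 higher. After quantile normalisation 4 of the 5 were lower, with a median of -0.08, and 6405 of all genes were lower and 6329 higher. The direction of Mest, Snrpn and Peg3 turned without control library 2, to log2 changes of 0.10, 0.00051 and 0.07, that of Mest and Peg3 without PNMC library 2, to 0.04 for both, that of Mest after median scaling (0.02) and that of Peg3 after quantile normalisation (0.03).

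Mest had a mean of 85.8 ± 14.5 (SD, n = 2) without and of 81.7 ± 10.9 (SD, n = 3) with PNMC. Its log2 change was -0.07, with a 95% interval from -0.44 to 0.30 (limma adjusted p = 0.993). Snrpn averaged 56.2 ± 5.35 and 52.7 ± 6.57, a log2 change of -0.10 with an interval from -0.47 to 0.28 (limma adjusted p = 0.993). For these 2 abundant genes the intervals held changes no larger than 0.47 in either direction. Impact averaged 3.95 ± 0.556 and 3.25 ± 0.767, a log2 change of -0.23 with an interval from -0.94 to 0.48. The Impact change was -0.097 without PNMC library 2, -0.11 without control library 2 and -0.36 without PNMC library 1. Peg3 averaged 0.963 ± 0.240 and 0.890 ± 0.214, a log2 change of -0.06 with an interval from -0.94 to 0.83. At these low levels the intervals left room for changes of nearly 1 unit on the log2(value + 1) scale. For Peg3, with a control mean of 0.963, the lower bound came close to a loss of the whole signal.

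Zrsr1 had the largest difference among the tested members. It had a mean of 3.30 ± 1.08 (SD, n = 2) without and of 1.84 ± 0.0662 (SD, n = 3) with PNMC, a log2 change of -0.57 (SE 0.354, 95% interval -1.34 to 0.19, limma unadjusted p = 0.127 and adjusted p = 0.993). The change was -0.32 without control library 2, which held the highest value, and -0.83 without control library 1. Control library 2 was also the library with the most genes listed above 0 and the highest summed signal of cumulus cell markers. Among the PNMC libraries, in contrast, PNMC library 1 had the highest Zrsr1 value, 1.91, and the lowest cumulus sum, 1.89. The part of these features in the Zrsr1 value was not tested. Zrsr1 is a retrogene copy related to Zrsr2, so reads could be split between them, and its value is uncertain for that reason.

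Among the 5 tested members, Zrsr1 alone had groups that did not overlap. Values that lay lower in all 3 PNMC libraries were found in 11.9% of genes tested and higher ones in 7.97%. Of the 5 members under the filter, Igf2r and Kcnq1ot1 were lower and Peg10 higher in every PNMC library than in both controls. Among genes above 0 but under the filter, 9.48% were lower and 3.53% higher in this way. The exact two-sided permutation test over libraries gave p = 0.2 for Zrsr1, Igf2r, Kcnq1ot1 and Peg10 alike, the smallest that 3 against 2 libraries can give.

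**Figure D2:**
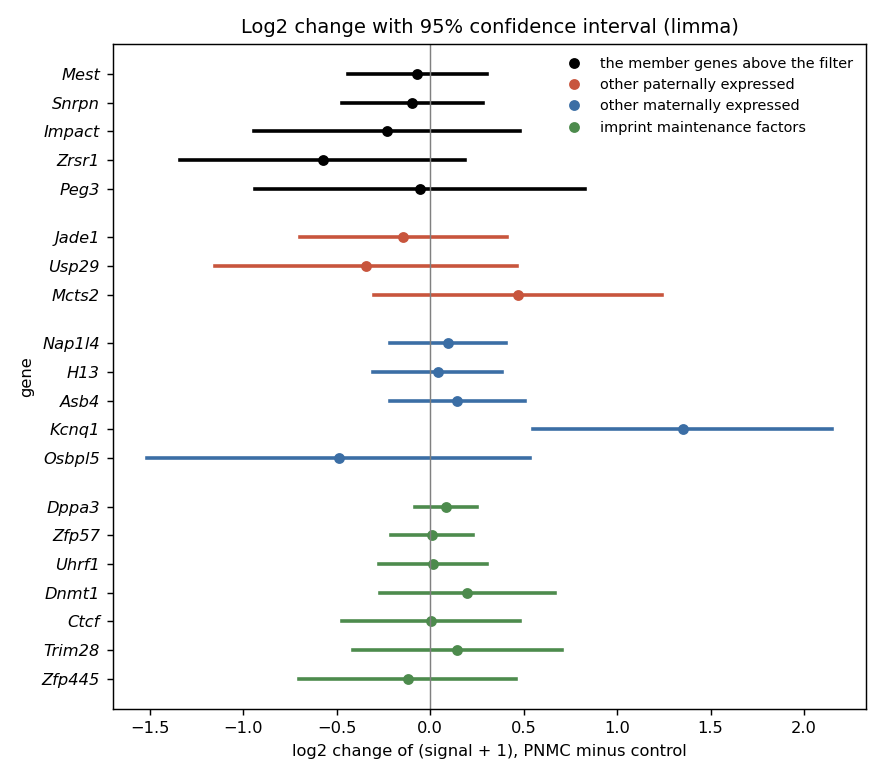
Log2 change of (signal + 1), PNMC minus control, with limma's 95% confidence interval (x axis) for the 5 members above the filter and the named genes of 3 further lists (y axis). The intervals of the 5 members include 0, that of Zrsr1 reaching from -1.34 to 0.19, and that of Kcnq1 lies above 0.

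Mest, Snrpn, Impact and Peg3 varied between libraries in the same order at both ends. Control library 2 and PNMC library 1 were the 2 highest and PNMC library 2 the lowest for each of these 4 genes. This order was noticed after the values were seen, and 514 of the 12734 genes tested, or 4.04%, showed it. The deviations from the gene mean on the log2(value + 1) scale were 0.21, 0.15, 0.25 and 0.16 in control library 2 for Mest, Snrpn, Impact and Peg3. In PNMC library 2 they were -0.24, -0.18, -0.36 and -0.21. In Mest, Snrpn and Peg3 the SD within either group was larger than the difference between the group means, and in Impact that of the PNMC group was. Zrsr1 shared the high value in control library 2 and the low value in PNMC library 2, but it was low in PNMC library 1 as well. Among the 7 maintenance factors 1, Zfp57, showed the same library order, with PNMC library 2 at 688.5 against 688.8 in control library 1. Of the other imprinted genes tested, 0 of 9 paternally and 1 of 17 maternally expressed ones showed it.

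**Figure D3:**
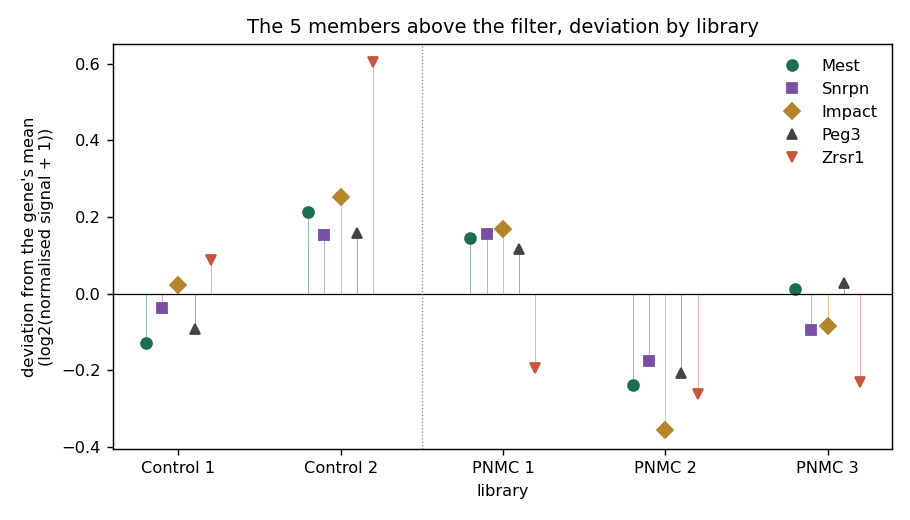
Deviation of each library from the gene's mean over the 5 libraries (y axis, log2(signal + 1) units) for the 5 members above the filter (x axis, library; symbols are offset sideways for legibility). Mest, Snrpn, Impact and Peg3 are high in control library 2 and PNMC library 1 and low in PNMC library 2, and Zrsr1 is below its mean in all 3 PNMC libraries.

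Several members overlap other genes, and Smart-seq2 libraries keep no strand, so reads of overlapping genes on opposite strands cannot be told apart. In GENCODE M21, Mest shares 912 exonic bases with Copg2 on the opposite strand, 23.1% of its exonic length. Copg2, a coat protein subunit gene, had a mean of 18.6 ± 1.52 (SD, n = 2) without and of 16.6 ± 0.801 (SD, n = 3) with PNMC. Its PNMC values lay below both controls, by a margin of only 17.50 against 17.55 for the nearest libraries. Zrsr1 shares 412 exonic bases, 9.2% of its exonic length, with Commd1, a copper metabolism gene on the opposite strand, which averaged 2.48 ± 0.207 and 2.90 ± 0.799. The Commd1 groups overlapped, with PNMC library 2 highest at 3.81. Snrpn shares 589 exonic bases, 27.3% of its exonic length, with the gene model Gm38393 on the same strand. Gm38393 stood at 0.669 and 0.287 in the controls and at 0.0549, 0 and 0.0772 after PNMC, lower in all 3 PNMC libraries. Of genes above 0 but under the filter, to which Gm38393 belongs, 9.48% were lower in this way. Snurf, which lies upstream in the same transcript as Snrpn and shares 216 exonic bases with it, averaged 0.0821 ± 0.0711 and 0.0216 ± 0.0198, far below Snrpn, and the labels do not say how reads of shared exons were assigned. Igf2 shares 62.8% of its exonic length with the gene model Gm49394 on the same strand, which was not matched to a row of the table, so its own value is uncertain. Airn, the noncoding RNA opposite Igf2r, shares no exonic base with it and stood at 5.70 and 1.396 in the controls and at 4.67, 5.14 and 0.293 after PNMC, with no separation of the groups.

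Kcnq1, a potassium channel gene on the strand opposite Kcnq1ot1, had the smallest limma p among the other imprinted genes. Its values were 0.998 and 1.196 in the controls and 4.30, 2.89 and 6.40 after PNMC, higher in all 3 PNMC libraries. It had a mean of 1.10 ± 0.140 (SD, n = 2) without and of 4.53 ± 1.77 (SD, n = 3) with PNMC, a log2 change of 1.35 (SE 0.371, limma unadjusted p = 0.00286). The change did not pass the adjusted threshold (limma adjusted p = 0.868, between 0.669 and 1 over the alternatives). Kcnq1ot1 itself averaged 0.0640 ± 0.0197 and 0.0370 ± 0.00701, lower after PNMC but under the filter and among the lowest values above 0. Higher values without overlap, as in Kcnq1, were found in 7.97% of genes tested. Lower ones, as in Kcnq1ot1, were found in 9.48% of genes above 0 but under the filter. A relation between the 2 genes was not tested. The 2 genes share 121 exonic bases, and with no strand information the division of reads between them is uncertain.

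The wider set of imprinted genes gave no called change. Of 25 further paternally expressed genes in the table, 5 were at 0 in every library and 9 were tested, 7 of them lower and 2 higher with PNMC and their median change -0.14 on the log2 scale. Of 27 further maternally expressed genes, 2 were at 0 in every library and 17 were tested, 5 of them lower and 12 higher with PNMC and their median change 0.12. Over all genes tested the median was -0.05, and none of these genes passed the adjusted threshold in limma, while Kcnq1 alone had an unadjusted p under 0.05. Groups without overlap were found in none of the 9 paternally expressed genes and in 3 of the 17 maternally expressed ones. These were lower after PNMC in Copg2 and higher in Kcnq1 and Ube3a. Over all genes tested, 11.9% were lower and 7.97% higher in this way. The difference between the 2 lists was not tested. Without control library 1 both medians came close to 0, at -0.00072 for the paternally and -0.04 for the maternally expressed genes, without control library 2 the paternal median was -0.31, and without PNMC library 3 it was 0.01. Under the other alternatives the paternal median lay between -0.25 (pseudocount of 0.1) and -0.048 (replicate block) and the maternal one between 0.06 (replicate block) and 0.18 (median scaling).

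The abundant paternally expressed genes were the chromatin factor gene Jade1, Usp29 and Mcts2. Usp29, a deubiquitinase gene that shares its promoter region with Peg3, had a mean of 19.02 ± 11.5 (SD, n = 2) without and of 14.3 ± 6.34 (SD, n = 3) with PNMC, well above Peg3 itself. Its libraries ranged from 8.57 to 27.2, with the groups overlapping. Jade1 averaged 18.7 ± 3.28 and 17.1 ± 4.57. Mcts2, a retrogene inside H13, averaged 8.43 ± 4.43 and 12.0 ± 5.36, a log2 change of 0.47 with a limma interval from -0.30 to 1.24. This change turned to -0.029 without control library 1 and was 0.97 without control library 2 and 0.15 without PNMC library 2. As a retrogene copy of Mcts1 it may share reads with its parent gene.

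The abundant maternally expressed genes were Nap1l4, H13 and Asb4. Nap1l4, a nucleosome assembly protein gene, had a mean of 140.1 ± 10.3 (SD, n = 2) without and of 150.3 ± 17.2 (SD, n = 3) with PNMC. H13, a signal peptide peptidase gene, averaged 70.2 ± 2.73 and 72.4 ± 7.71, and Asb4, of the SOCS box family, averaged 50.8 ± 5.34 and 56.2 ± 3.91. The groups overlapped in all 3 genes. Osbpl5, an oxysterol-binding protein gene, averaged 1.54 ± 0.977 and 0.847 ± 0.688, a log2 change of -0.49 with a limma interval from -1.51 to 0.54. It was -0.087 without control library 1, -0.13 without PNMC library 3, -0.89 without control library 2 and -1.19 with a pseudocount of 0.1.

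**Figure D4:**
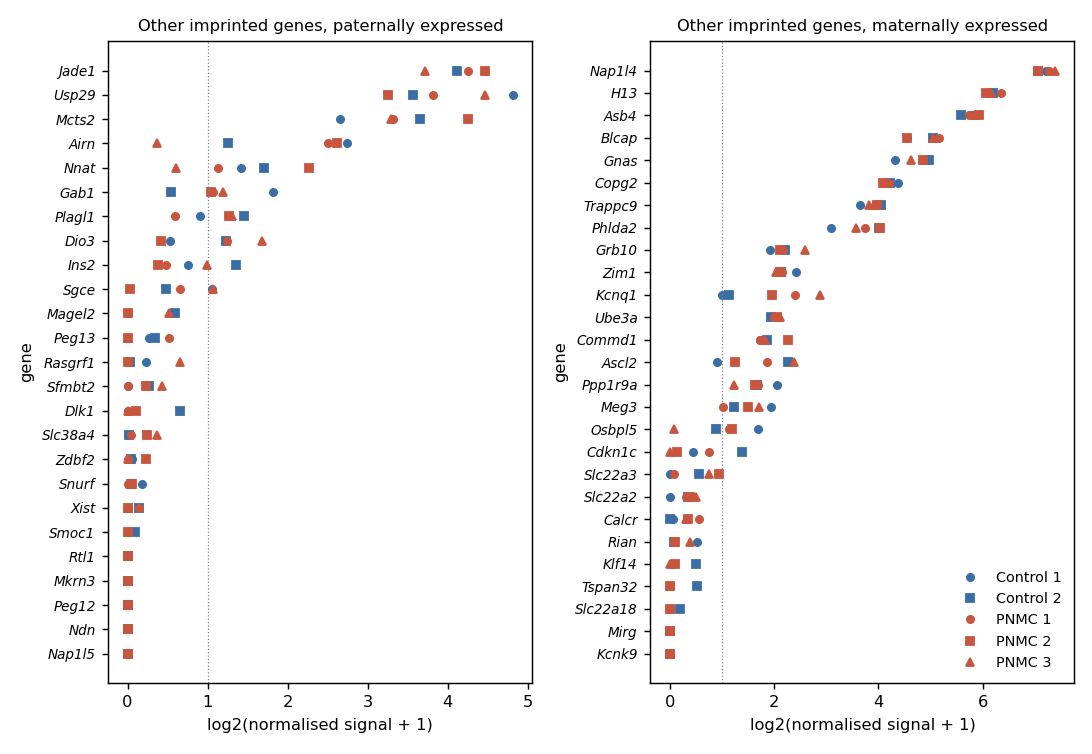
Normalised signal of 25 paternally and 27 maternally expressed imprinted genes beside the 10 members, per library (x axis, log2(signal + 1), with different ranges in the 2 panels; y axis, gene, ordered by mean; dotted line, a signal of 1). Blue and red points mix for most genes, and those of Kcnq1 are apart, with all 3 PNMC libraries above both controls.

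Transcripts of the factors that keep imprints were present in every library. Dppa3, which protects methylation in the early embryo, had a mean of 3107 ± 76.3 (SD, n = 2) without and of 3296 ± 157 (SD, n = 3) with PNMC. Its PNMC values lay above both controls, as in 7.97% of genes tested, and the groups of the other factors overlapped. The Dppa3 log2 change of 0.08 turned to -0.041 after quantile normalisation. Zfp57 averaged 725 ± 51.5 and 729 ± 37.0, with a log2 change of 0.01 and a limma interval from -0.21 to 0.23. Uhrf1, the partner of the maintenance methyltransferase, averaged 179 ± 24.8 and 180.4 ± 4.99, and that enzyme's gene Dnmt1 16.3 ± 2.38 and 18.8 ± 1.29. The insulator protein gene Ctcf averaged 15.1 ± 0.102 and 15.2 ± 1.33. Trim28, the corepressor recruited by ZFP57, averaged 12.1 ± 0.000523 and 13.8 ± 3.95, with PNMC library 2 at 18.3. Zfp445, a second imprint-binding zinc finger gene, averaged 7.25 ± 0.272 and 6.602 ± 0.543. None of the 7 passed in limma, adjusted or unadjusted, and the 95% intervals of all 7 lay within 1 log2 unit.

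Column sums of the signal were between 446010 and 454548, and control library 2 listed 18595 genes above 0 against 17408 to 17635 in the other libraries. All 12 oocyte and 2-cell markers were present, with summed signals from 8916 to 9421 in controls and from 9088 to 9614 after PNMC. Of 10 cumulus cell markers, 6 were above 0 in some library, with sums of 1.60 and 7.35 in the controls and from 1.89 to 2.91 after PNMC, and Ptx3, Amh, Foxl2 and Inhba were at 0 throughout. Of 7 sperm markers, 4 were above 0, with sums from 4.22 to 4.58 and from 4.54 to 6.89, and Prm1, Tnp2 and Smcp were at 0. The 6 blood and immune markers summed to between 9.18 and 10.3 in controls and between 9.43 and 12.4 after PNMC. Of 5 oviduct markers, 4 were above 0, with sums from 56.9 to 58.1 and from 45.8 to 86.3. Most of each sum was Epcam, at 54.6 and 52.8 in the controls and at 43.6, 82.9 and 45.6 after PNMC. The highest values of Krt8, Foxj1 and Ovgp1 were 4.28, 1.37 and 1.25, and Pax8 was at 0. The summed cumulus signal of 7.35 belonged to control library 2, the library with the highest Mest, Impact, Zrsr1 and Peg3 values. Among the PNMC libraries the order was the other way. The lowest PNMC sum, 1.89, was in PNMC library 1, which had the highest values of these genes in its group. The highest PNMC sum, 2.91, was in PNMC library 2, which had the lowest values. The part of the cumulus signal in these values was not tested.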

How the data were processed

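The deposited table held 1 normalised signal per gene symbol and library, and each column was matched to its library by sample title. The authors' unit and scaling are not stated in the deposited file. Per the submitters' processing notes, the tools were HISAT2 2.0.5, DESeq2 1.16.1, HTSeq and Trimmomatic, with build GRCm39. These sources name no annotation and do not say which of the tools produced the table. Low values had no common step, so whole reads could not be recovered, which leaves the depth unknown and allows neither a count test nor counting intervals.

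Genes whose signal reached 1 in 2 or more of the 5 libraries entered the test (12734; 19551 removed) and log2(value + 1) was compared, 3 PNMC against 2 control libraries, with limma 3.58.1 in R 4.3.3 (trend, robust variances, no covariate) and Benjamini-Hochberg adjustment at 0.05. Changes on this scale understate those of low genes. In 10 simulated datasets of 12734 genes with 200 changed genes of a mean log2 value of at least 4, 88% of 2-fold and 100% of 4-fold changes were called, and 0.109% of unchanged genes. That simulation does not cover low genes, such as all members but Mest and Snrpn. Nor does it give a share for a change in Mest or Snrpn alone. Its 200 changed genes made the adjusted threshold easier to pass than in the data, where no gene was called.

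The members and lists were chosen with earlier results of these data known. Named genes were all members, the 3 highest and the 2 with the smallest p of each further imprinted list, and all maintenance factors; Copg2, Commd1, Snurf, Airn and 2 gene models were added after their values were seen, because they overlap members, and Ube3a because its groups did not overlap. The designation paternally or maternally expressed is background. Overlaps came from GENCODE M21 (GRCm38) and promoters from RefSeq (GRCm38.p6), and sequence features were counted with Python 3.11.15. The alternatives tried were quantile normalisation, median scaling, variances without robust estimation, a replicate block, a pseudocount of 0.1, a minimum of 10, no filter and each library left out.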

Additional observations from a re-analysis of the deposited data

How the results depend on the processing

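No member passed the adjusted threshold under any of the 12 alternatives, nor did any further imprinted gene or maintenance factor, with adjusted p from 0.907 to 1 for the members. Zrsr1 (-0.83 to -0.32), Impact (-0.36 to -0.097), Igf2r and Kcnq1ot1 stayed lower and Peg10 higher after PNMC wherever they had a value. In all of these but Impact the groups did not overlap. For them only a rescaling of the libraries could have turned the sign, so most of this constancy was fixed in advance. The minimum of 10 left only Mest and Snrpn among the members. The count of all genes called was 1 with no filter (lowest adjusted p = 0.00126) and 0 to 1 with 1 library left out, being 1 without PNMC library 1; the cause was not tested.

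Signs that turned were all of changes that no test called, and the cause was not tested. Under quantile normalisation they were Peg3 (0.026), Zfp57 (-0.054) and Dppa3 (-0.041), after median scaling Mest (0.018), and with a pseudocount of 0.1 Igf2 (-0.014). With 1 library left out, the log2 change crossed 0 for these genes, with ranges for Jade1 from -0.31 to 0.071, Usp29 from -0.97 to 0.28, Mcts2 from -0.029 to 0.97, Zfp57 from -0.064 to 0.080, Uhrf1 from -0.13 to 0.16, Peg3 from -0.18 to 0.070, Mest from -0.24 to 0.10, Snrpn from -0.19 to 0.00051, Ctcf from -0.033 to 0.075, H13 from -0.042 to 0.10, Trim28 from -0.065 to 0.26 and Igf2 from -0.089 to 0.15. Without control library 1 it turned for Jade1, Usp29, Mcts2, Zfp57 and Uhrf1, and without control library 2 for Peg3, Mest, Snrpn and Ctcf. Without PNMC library 1 it turned for H13, Zfp57 and Uhrf1, without PNMC library 2 for Peg3, Mest, Trim28 and Ctcf, and without PNMC library 3 for Igf2, Jade1, Zfp57 and Ctcf. With 1 library left out, the median of the paternally expressed list ranged from -0.31 to 0.012, that of the maternally expressed list from -0.038 to 0.12, and that of the members tested from -0.28 to -0.026, against -0.095 with all libraries and -0.012 after median scaling.

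Replicate numbers 1 and 2 occur in both groups, but the labels tie them to no shared culture. Deviations from the group means correlated at -0.058 and -0.043 for the same numbers and at 0.058 and 0.043 for numbers 1 and 2 crossed. With 2 controls their deviations are mirror images, so these values cannot decide whether libraries of the same number shared a culture. With the replicate block 0 members and 0 genes in all were called, and Igf2 (-0.089), Jade1 (0.071), Zfp57 (-0.00080) and Ctcf (-0.033) turned sign; the block leaves PNMC library 3 without a partner. Unknown depth limits the low genes most.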
